A study of Homo sapiens with 12 samples.

Results

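The potassium channel genes described here were the protein-coding genes of the RefSeq table for GRCh38.p14 whose symbols begin with KCN. They numbered 94 of 20037 protein-coding genes and fell into 21 subfamilies by symbol. The symbol prefix takes in more than channel pores. Besides the pore-forming subunits it holds the silent modifier subunits KCNF, KCNG, KCNS and KCNV, the auxiliary subunits KCNAB, KCNE, KCNIP and KCNMB, and KCNRG, a regulator of channel assembly. A gene was counted as having a peak where an interval touched its body or the 2 kb on either side by at least 1 bp, and this stretch is called its window below.

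The study profiled H1, an established line of human embryonic stem cells, by chromatin immunoprecipitation and sequencing (ChIP-seq), which maps where a protein or histone mark sits on DNA. Untreated H1 cells were profiled with antibodies to YTHDF1, to RNF2 and to H2AK119ub. H1 cells given an shRNA against YTHDF1 (the knockdown) were profiled with the YTHDF1 antibody alone, and input libraries accompanied both. The 12 libraries made 6 groups of 2 biological replicates, and the authors merged the replicates into 1 peak list for each of the 4 immunoprecipitated groups. Whether the knockdown cells were 1 clone or a pool, and which shRNA sequence was used, is not given in the sources used here. With 1 list per condition there was no spread between replicates to test against, so all values are counts and shares with exact 95% intervals (Clopper-Pearson) that cover counting error only. Depth per library was unknown, and the peak lists hold no RNA values against which stem cell markers could be checked.

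The lists differed in stringency. The wild-type YTHDF1 list held 44498 peaks with a lowest −log10 q (adjusted significance, higher is stronger) of 1.5 and a median fold enrichment (ChIP over control, as the authors' peak caller gave it) of 2.89, and 97.6% of its peaks lay below a −log10 q of 4. The RNF2 list held 29310 peaks and the knockdown YTHDF1 list 226, both with a lowest −log10 q of 4.01, and the H2AK119ub list held 43331 islands (merged stretches of enriched windows) with no q. A share of genes with YTHDF1 therefore cannot be set against a share with RNF2 as a measure of binding, and each share is read against that of all coding genes in the same list.

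Potassium channels carry potassium across the cell membrane and set the resting potential, the shape of action potentials and much of salt transport in epithelia, and most are best known from neurons, muscle, heart, kidney and secretory cells. In embryonic stem cells the Polycomb repressive complex PRC1, whose catalytic subunit is RNF2, places a ubiquitin on a lysine of histone H2A (H2AK119ub), mostly at the CpG-rich starts of genes that are silent or lowly transcribed there, among them many genes of differentiated tissues. YTHDF1 is known as a reader of N6-methyladenosine in messenger RNA, and the study asked where its ChIP signal lies relative to RNF2 and the mark.

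RNF2 and H2AK119ub were found over most KCN genes. H2AK119ub islands touched 84 of 94 windows (89.4%, interval 81.3% to 94.8%), against 79.0% of all coding genes. RNF2 peaks touched 76 (80.9%, interval 71.4% to 88.2%), against 71.7%, and the lower bound lies just below that background. YTHDF1 peaks touched 63 (67.0%, interval 56.6% to 76.4%), against 54.1%. All 3 wild-type lists met over 55 genes (58.5%, background 45.2%), and 7 genes (7.45%, background 14.7%) had no peak of any list. KCN genes were longer than coding genes in general, with a median of 35.6 kb against 24.1 kb, and longer windows met more peaks in every list.

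No KCN gene had RNF2 without H2AK119ub, a state seen in 2.85% of coding genes (0 of 94 allows up to 3.85%). The reverse state, an island without an RNF2 peak, was found over 8 genes (8.51%, background 10.1%), namely KCNA10, KCND1, KCNE3, KCNG4, KCNK5, KCNK18, KCNMB1 and KCNU1. RNF2 and H2AK119ub without YTHDF1 marked 21 genes (22.3%), close to the background of 23.7%. YTHDF1 alone marked 3 (3.19%, background 3.39%), the inward rectifiers KCNJ15 and KCNJ16 and the auxiliary gene KCNMB2.

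Strong and long RNF2 peaks were more frequent over KCN genes than over coding genes in general. A peak of at least 10-fold enrichment touched 16 genes (17.0%, interval 10.1% to 26.2%), against 8.75% of coding genes. By gene length these were 5 of 20 genes under 10 kb, 8 of 34 from 10 to 50 kb, 1 of 22 from 50 to 200 kb and 2 of 18 above, where all coding genes gave 578 of 5694, 542 of 8074, 408 of 4870 and 226 of 1399. The excess thus lay in genes under 50 kb. A peak of at least 5 kb touched 19 (20.2%, interval 12.6% to 29.8%), against 9.69%. RNF2 peaks covered at least 50% of the window of 8 genes (8.51%, background 4.94%), and H2AK119ub islands covered that much of 43 (45.7%, interval 35.4% to 56.3%, background 30%). These thresholds were chosen after the values had been seen.

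**Figure D1:**
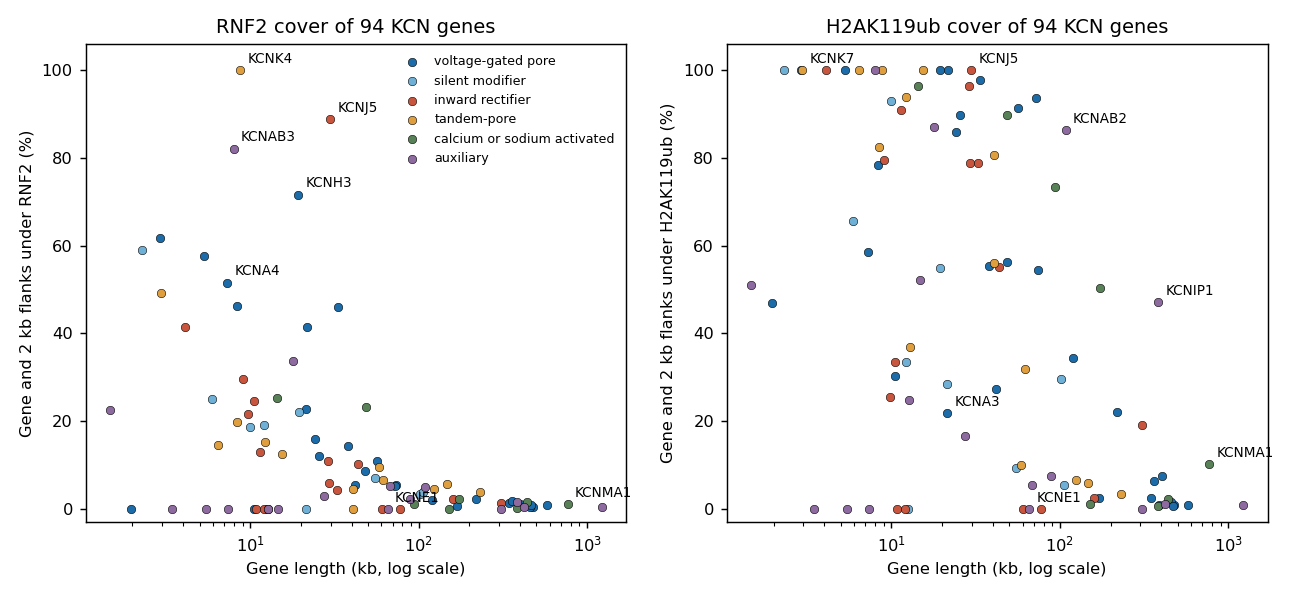
Share of each gene's window lying under RNF2 peaks (left) and under H2AK119ub islands (right), in percent, against gene length in kb on a log scale; each point is 1 of the 94 KCN genes, coloured by role (KCNRG is drawn with the auxiliary subunits). KCNU1 is drawn with the calcium- or sodium-activated channels. RNF2 cover of at least 50% was found only among KCN genes under 50 kb, with KCNK4 at 100% and KCNJ5 at 88.9%, while H2AK119ub cover reached 47.1% over the 383.1 kb of KCNIP1.

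Promoter sequence was compared between starts with and without an RNF2 peak. RefSeq promoter entries, 250 bases before to 50 after a start, were at hand for 72 of the 94 genes and gave 110 promoters. Of these, 64 (58.2%) lay under an RNF2 peak, against 61.6% of 22199 promoters of coding genes. Promoters under RNF2 held a median of 27 CpG dinucleotides per 300 bases and those without it 6, and the same medians over all coding genes were 28 and 5. The KCN promoters thus followed the pattern of coding genes in general. Among 42 promoters with at most 9 CpGs, RNF2 lay over 5 (11.9%, all coding 13.6%). Among 20 promoters with 10 to 19 it lay over 14 (70.0%, all coding 62.5%), and among 48 with 20 or more over 45 (93.8%, interval 82.8% to 98.7%, all coding 88.6%). H2AK119ub islands rose across the same classes but started higher, lying over 20 of 42 (47.6%), 17 of 20 (85.0%) and 47 of 48 (97.9%), against 36.2%, 73.2% and 89.8% of all coding promoters.

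**Figure D2:**
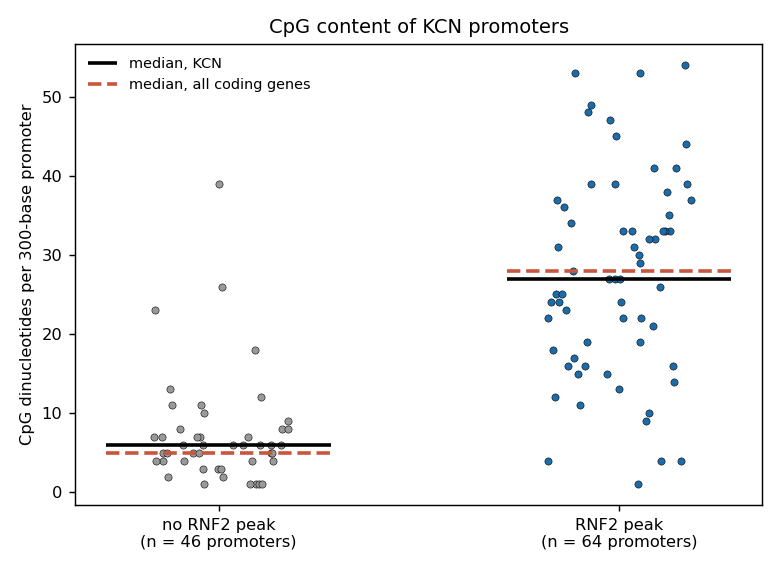
CpG dinucleotides per 300-base promoter for the 110 promoters of 72 KCN genes, split by whether an RNF2 peak lay over them; points are promoters with horizontal jitter, solid bars the KCN medians (6 and 27) and dashed bars the medians of all coding genes (5 and 28). Most promoters with RNF2 lie above 10 CpGs and most without it below, with 3 exceptions at 20 or more on the left.

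The 6 promoters printed next were chosen after the values were seen. They show a strongly covered start, both starts of a gene with 1 under RNF2 and 1 without, both kinds of exception to the CpG pattern, and a gene with no peak. They are RefSeq sequences of GRCh38.p14, 5′ to 3′ on the strand of the gene, with every CpG dinucleotide (the 2 letters CG, which read the same on both strands) in capitals. The KCNJ5 promoter lies under the RNF2 peak with the highest fold of all KCN genes and holds 25 CpGs.
KCNJ5, chr11:128891106-128891405, plus strand: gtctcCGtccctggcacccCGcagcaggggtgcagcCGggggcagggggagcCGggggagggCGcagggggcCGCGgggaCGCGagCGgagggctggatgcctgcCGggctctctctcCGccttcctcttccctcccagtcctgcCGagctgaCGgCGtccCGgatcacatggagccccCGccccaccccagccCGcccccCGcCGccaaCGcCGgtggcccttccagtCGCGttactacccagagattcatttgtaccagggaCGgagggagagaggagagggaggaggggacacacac
KCNMA1 has a start with 54 CpGs under RNF2 and H2AK119ub, and a start inside the gene with 1 CpG and no peak of any list.
KCNMA1, chr10:77637759-77638058, minus strand: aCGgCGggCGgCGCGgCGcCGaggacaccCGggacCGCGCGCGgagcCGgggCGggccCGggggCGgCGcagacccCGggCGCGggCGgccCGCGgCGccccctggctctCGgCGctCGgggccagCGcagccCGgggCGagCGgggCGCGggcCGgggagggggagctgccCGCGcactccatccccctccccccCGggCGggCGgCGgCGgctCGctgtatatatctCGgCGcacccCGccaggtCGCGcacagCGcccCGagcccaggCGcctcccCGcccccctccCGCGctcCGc
KCNMA1, chr10:77350712-77351011, minus strand: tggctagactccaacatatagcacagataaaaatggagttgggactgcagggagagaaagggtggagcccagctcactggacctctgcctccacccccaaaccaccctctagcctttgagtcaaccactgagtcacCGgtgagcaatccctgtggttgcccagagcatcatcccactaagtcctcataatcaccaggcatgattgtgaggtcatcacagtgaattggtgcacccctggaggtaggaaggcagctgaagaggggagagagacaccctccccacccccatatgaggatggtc
The KCNC2 promoter holds only 4 CpGs and still lies under RNF2, H2AK119ub and YTHDF1 peaks.
KCNC2, chr12:75209790-75210089, minus strand: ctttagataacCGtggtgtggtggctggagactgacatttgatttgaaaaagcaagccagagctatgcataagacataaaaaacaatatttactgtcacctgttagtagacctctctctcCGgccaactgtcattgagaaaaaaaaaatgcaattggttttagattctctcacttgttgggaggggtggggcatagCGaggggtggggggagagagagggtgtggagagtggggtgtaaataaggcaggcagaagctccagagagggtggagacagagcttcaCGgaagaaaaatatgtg
The KCNK5 promoter holds 39 CpGs and lies under H2AK119ub and YTHDF1 but under no RNF2 peak.
KCNK5, chr6:39229426-39229725, minus strand: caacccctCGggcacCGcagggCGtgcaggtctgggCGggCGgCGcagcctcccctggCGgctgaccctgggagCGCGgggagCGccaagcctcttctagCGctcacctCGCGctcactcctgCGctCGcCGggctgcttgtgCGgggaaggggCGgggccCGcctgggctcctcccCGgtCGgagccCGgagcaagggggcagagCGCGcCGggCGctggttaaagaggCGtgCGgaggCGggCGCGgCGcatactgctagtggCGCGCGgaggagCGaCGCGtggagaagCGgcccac
KCNE2, an auxiliary subunit gene without a peak in any list, has 1 CpG in its promoter.
KCNE2, chr21:34363756-34364055, plus strand: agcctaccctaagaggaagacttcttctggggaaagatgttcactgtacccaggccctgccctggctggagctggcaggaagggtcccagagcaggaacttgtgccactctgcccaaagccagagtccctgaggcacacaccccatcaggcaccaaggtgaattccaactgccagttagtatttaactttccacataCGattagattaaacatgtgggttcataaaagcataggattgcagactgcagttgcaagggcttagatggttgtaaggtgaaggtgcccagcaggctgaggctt

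Genes with several starts allowed the comparison within a gene. Of 22 KCN genes with more than 1 listed start, 10 had RNF2 over some promoters and not over others. In 9 of these 10, every promoter under RNF2 held more CpGs than every promoter without it. The same count was not made over all coding genes. Their promoters with and without RNF2 had medians of 28 and 5 CpGs, but these are pooled over genes. Whether the within-gene count sets KCN genes apart was therefore not tested. In KCNMA1 the counts were 54 and 1. KCNA2, a subunit of fast voltage-gated channels of axons, had 28 CpGs at the start under RNF2 and 4 at the other. KCNIP4, the longest KCN gene, had 47 against 18 and 8, and KCNK2, a mechanosensitive leak channel, 14 against 5. The exception was KCNAB1, a cytoplasmic beta subunit, whose 2 promoters under RNF2 held 4 each and whose 3 others held up to 5.

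Departures from the CpG pattern were few. Promoters with 20 or more CpGs and no RNF2 belonged to KCNE1, KCNE3 and KCNK5. Promoters with fewer than 10 CpGs under RNF2 belonged to KCNA3, KCNAB1, KCNC2 and KCNK4. In KCNA3 and KCNK4 the same gene also had CpG-rich starts under the same RNF2 peak, with up to 37 and 41 CpGs.

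Voltage-gated pore genes all had an H2AK119ub island and nearly all RNF2. Of these 29 genes (KCNA, KCNB, KCNC, KCND, KCNH and KCNQ), 25 had YTHDF1 (86.2%, interval 68.3% to 96.1%, background 54.1%). RNF2 touched 27 (93.1%, interval 77.2% to 99.2%, background 71.7%) and H2AK119ub all 29 (interval 88.1% to 100%, background 79.0%). The median length of the 29 genes was 48.3 kb, against 24.1 kb for all coding genes. The KCNA genes, whose products give low-threshold delayed rectifier and transient currents, were short, with a median of 7.83 kb. H2AK119ub touched 8 of 8, RNF2 7 and YTHDF1 6, and 5 had an RNF2 peak of at least 10-fold (background 8.75%). Their median RNF2 cover of 34.5% compares with 4.80% over all KCN genes, and their short length moves with this value. Over KCN genes under 10 kb, which include KCNA genes, the median was 27.4%, against 8.97% of all such coding genes. The strongest RNF2 peak was 17.8-fold in KCNA1, 17.4-fold in KCNA4, 14.0-fold in KCNA3, 13.3-fold in KCNA2 and 12.6-fold in KCNA7. KCNA5 at 7.75-fold and KCNA6 at 7.41-fold lay below these, and KCNA10 had an H2AK119ub island of 2.8 kb with no RNF2 peak. In KCNA4 (chr11:30009730-30017030) the peak spanned 19.7 kb and ran mostly beyond the gene, so that 51.6% of the window was covered.

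KCNC genes, which encode the fast channels of high-frequency neurons, had all 3 lists over 4 of 4 (interval for each list 39.8% to 100%). All 3 lists met over 45.2% of coding genes, and over 64.6% of those of 50 to 200 kb. The median KCNC length was 61.0 kb. The strongest RNF2 peak was 11.1-fold in KCNC1, 9.51-fold in KCNC4 and 4.65-fold in KCNC2. H2AK119ub covered 56.3% of the KCNC1 window and 54.4% of KCNC4, but 2.42% of the 169.8 kb KCNC2. KCNC2 thus had the weakest RNF2 peak and the least island cover of these 3, and also the CpG-poor promoter.

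All 8 KCNH genes, of the ether-a-go-go family, had RNF2 and H2AK119ub (interval 63.1% to 100% for each, backgrounds 71.7% and 79.0%). YTHDF1 touched 7 (background 54.1%). Their median length was 189.7 kb. KCNH3, a brain member (chr12:49539030-49558337), had RNF2 peaks over 71.6% of its window, the longest of them 20.2 kb and 25.4-fold, inside an H2AK119ub island of 29.6 kb. KCNH2, the cardiac repolarisation channel (chr7:150944961-150978321), had 7 RNF2 peaks, the most of any KCN gene. They covered 17.2 kb or 46.1% of the window, and islands covered 97.9%. The other 6 had top RNF2 folds from 3.40 in KCNH6 to 8.40 in KCNH4. In the 4 KCNH genes over 200 kb (KCNH1, KCNH5, KCNH7 and KCNH8) RNF2 cover stayed between 0.53% and 1.3%.

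KCNQ genes had all 3 lists over 4 of 4 (interval for each list 39.8% to 100%). Their median length was 216.3 kb. All 3 lists met over 64.6% of coding genes of 50 to 200 kb and 84.6% of those above. None had a 10-fold RNF2 peak, which with 4 genes allows a share of up to 60.2%. Top RNF2 folds were 7.52 in KCNQ5 and 4.87 in KCNQ3, a subunit of the neuronal M-current channel. Islands covered only 6.34% of KCNQ3 and 0.85% of KCNQ5, which span 360.2 kb and 576.8 kb, while the median island cover of the 4 genes was 48.8%.

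The smaller voltage-gated subfamilies held no further RNF2 domain of this size. KCND3, a transient-current channel of heart and brain, had a 12.5-fold peak of 5.56 kb, and KCND2 a 4.96-fold peak. KCND1 had an H2AK119ub island over 30.4% of its window and neither RNF2 nor YTHDF1. KCNB2, a delayed rectifier of neurons, had a top RNF2 fold of 7.60.

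The inward rectifiers ranged from the strongest RNF2 peak of all KCN genes to no peak at all. Of 16 KCNJ genes, 12 had RNF2 and the same 12 had H2AK119ub, close to the backgrounds of 71.7% and 79.0%. YTHDF1 touched 8 (50%, background 54.1%). KCNJ5 encodes a G-protein-gated channel of the heart atrium and adrenal cortex (chr11:128891356-128921163). It had the highest RNF2 fold of all KCN genes, 45.0, in a peak of 32.1 kb, followed by 4 further peaks, of which the last was 9.59 kb and 9.87-fold. Together they covered 30.1 kb, or 88.9% of the window, inside an island of 80.8 kb that also covered TP53AIP1. No YTHDF1 peak touched KCNJ5. Its neighbour KCNJ1, the secretory channel of the kidney tubule, was reached by the same island only in its flank and had further islands of its own. Its top RNF2 peak was 3.67-fold.

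Among the other KCNJ genes, RNF2 stood at 13.7-fold in KCNJ12, which helps set the resting potential of muscle. The remaining 9 with RNF2 lay between 5.23-fold in KCNJ10, the glial potassium buffer, and 7.33-fold in KCNJ4. KCNJ12 and KCNJ18 are near-identical copies, so reads may have been placed on either, and the absence of peaks over KCNJ18 is uncertain. KCNJ13, of retinal pigment epithelium, had no peak of any list, and KCNJ15 and KCNJ16, epithelial channels, had YTHDF1 peaks alone.

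CpG content separated the listed KCNJ promoters with RNF2 from those without it, with no overlap. The 13 KCNJ genes with promoter entries had 16 promoters. The 6 under RNF2 (KCNJ2, KCNJ3, KCNJ5, KCNJ6, KCNJ8 and KCNJ10) held 15 to 39 CpGs, and the 10 without RNF2 held 1 to 8. Of those 10, 3 still lay under an H2AK119ub island. The KCNJ1, KCNJ4 and KCNJ14 promoters were among the 10, although these genes had RNF2 peaks elsewhere in their windows. In KCNJ4, on the minus strand, the only listed start (chr22:38444028) lies inside the gene. Its 7.33-fold RNF2 peak (chr22:38453413-38456378) covered the upstream end of the gene, at 38455199, which has no promoter entry. The separation by CpG thus holds for listed promoters only. Among all coding promoters, RNF2 lay over 13.6% of those with at most 9 CpGs. It lay over 62.5% of those with 10 to 19 and 88.6% of those with 20 or more. No YTHDF1 peak lay within 2 kb of a KCNJ start (0 of 13, which allows up to 24.7%), and the background is 24.4% of coding genes, so at this number of genes 0 is not separable from the background share.

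All 14 tandem-pore KCNK genes, which give background leak currents, had an H2AK119ub island (interval 76.8% to 100%, 79.0% of coding genes). RNF2 touched 12 (85.7%, against 71.7%) and YTHDF1 9 (64.3%, against 54.1%). KCNK4, a mechanosensitive channel of neurons (chr11:64291302-64300031), lay wholly under an RNF2 peak of 23.3 kb and 39.5-fold. That peak also touched BAD, GPR137, CATSPERZ and ESRRA, so it is not a feature of KCNK4 alone. The related lipid- and stretch-gated channels KCNK10 and KCNK2 had peaks of 14.7-fold over 8.94 kb and of 11.7-fold over 9.35 kb. The 3 strongest RNF2 signals of the subfamily thus lay on the 3 genes of that related group, a grouping noted after the values were seen. The other 9 ranged from 4.79-fold in KCNK15 to 8.08-fold in KCNK3, an acid-sensitive channel.

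KCNK7, a subfamily member not known to form a working channel, lay in the longest island over any KCN gene, of 102.8 kb, which touched 8 coding genes. KCNK16 and KCNK17, both known from pancreatic islets, are neighbours and shared 1 RNF2 peak of 5.86-fold, 1 YTHDF1 peak of 837 bp and 1 island of 32.4 kb. These 2 genes are not independent observations. KCNK5, an alkaline-sensitive channel of kidney, had 5 islands over 80.7% of its window and 5 YTHDF1 peaks without any RNF2 peak, and its CpG-rich promoter was under a YTHDF1 peak of 2.63-fold. KCNK18 had an island over 36.9% of its window and neither of the other 2.

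**Figure D3:**
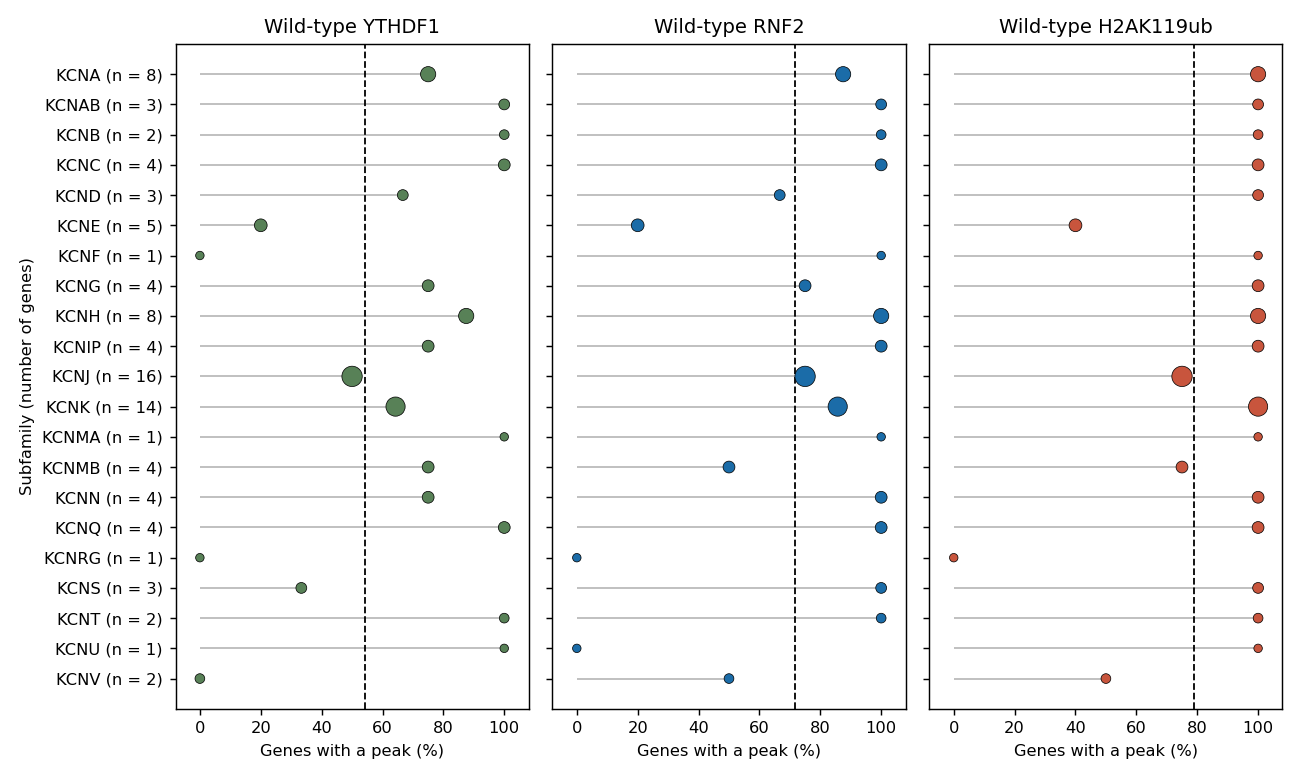
Percent of the genes of each KCN subfamily with a wild-type YTHDF1, RNF2 or H2AK119ub peak over the window; circle area grows with the number of genes, and dashed lines mark the share of all coding genes (54.1%, 71.7% and 79.0%). Most subfamilies hold fewer than 5 genes; of the larger ones, KCNE lies lowest in all panels with 1, 1 and 2 of 5 genes, and KCNJ lies near the background.

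Channels opened by calcium or sodium (KCNMA, KCNN, KCNT and KCNU, 8 genes) had RNF2 over 7 and H2AK119ub over 8, with no peak of 10-fold (0 of 8 allows up to 36.9%). KCNN1, a small-conductance channel of neurons (chr19:17951290-18000085), had 6 RNF2 peaks over 12.2 kb, the strongest 8.87 kb long and 9.52-fold, and an island of 48.0 kb. KCNN2 had a 7.38-fold peak at one end. KCNMA1, the large-conductance channel, spans 768.2 kb and had 3 RNF2 peaks, of which the 6.20 kb peak of 8.32-fold lay on its CpG-rich start. It carried 15 islands and 17 YTHDF1 peaks, the most YTHDF1 peaks of any KCN gene. KCNT1 and KCNT2, sodium-activated channels, had all 3 lists, with top RNF2 folds of only 2.88 and 2.84. KCNU1, a sperm channel, had 1 island of 1.6 kb and no RNF2.

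The silent modifiers, which do not conduct alone but join KCNB subunits, had RNF2 over 8 of 10 (interval 44.4% to 97.5%, background 71.7%). YTHDF1 touched 4 (40%, interval 12.2% to 73.8%, background 54.1%), and both intervals hold the background share. KCNS1 and KCNG1, both at 14.8-fold, had the strongest RNF2 peaks among them. KCNF1, only 2.29 kb long, was covered by RNF2 over 59.0% and by H2AK119ub over 100% of its window. KCNG4 had islands over 28.4% of its window without RNF2. KCNV2, a photoreceptor subunit, had no peak of any list.

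Auxiliary genes (17 with KCNRG) had RNF2 over 10 (58.8%, interval 32.9% to 81.6%), an interval that holds the 71.7% of coding genes. H2AK119ub touched 12 (70.6%, background 79.0%) and YTHDF1 10 (58.8%, background 54.1%). None had a 10-fold RNF2 peak (0 of 17 allows up to 19.5%, above the background of 8.75%). KCNE genes were 4 of the 7 without RNF2. These single-span subunits of voltage-gated channels had RNF2 over 1 of 5 (KCNE5, 3.50-fold), and KCNE1, KCNE2 and KCNE4 had no peak of any list. KCNRG, the assembly regulator, had none either. KCNAB3 differed, with RNF2 over 82.2% of its window and an island of 32.0 kb that touched 5 coding genes. The KCNMB genes, beta subunits of the KCNMA1 channel, had RNF2 over 2 of 4 (interval 6.76% to 93.2%). Top folds were 5.16 in KCNMB4 and 4.52 in KCNMB3, and the island over KCNMB1 is shared with KCNIP1. KCNIP2, which partners KCND channels in heart, had 5 RNF2 peaks over 33.8% of its window. KCNIP1, its neuronal relative, carried 27 islands over 47.1% of a gene of 383.1 kb and only 6 RNF2 peaks, of 3.03-fold to 5.09-fold.

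YTHDF1 peaks over KCN genes were many and weak. The 233 distinct peaks had fold enrichments of 2.41 to 3.74 and −log10 q of 1.51 to 4.26, and 164 of them (70.4%) lay below 3-fold, against 69.0% of the whole YTHDF1 list. Their values came in steps, with 47 peaks (20.2%) at exactly 2.81-fold, a value shared by 15.3% of the whole list, so ranks among them are coarse. Only 1 peak reached a −log10 q of 4, the lowest value kept in the other scored lists. It was 496 bp long and 3.74-fold, in KCNB2, whereas 4.12% of coding genes have such a peak (1 of 94 is 1.06%, interval 0.0269% to 5.79%).

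Next in strength by the authors' −log10 p were peaks of 3.65-fold in KCNH4, KCNJ6 and the KCNK16 and KCNK17 pair. They were followed by 3.43-fold in KCNJ14 and 3.44-fold in KCNH1, and then by 3.51-fold in KCNIP1, KCNJ10, KCNQ3 and KCNS3, which were tied. The KCNH1 peak, of 863 bp on chr1:211133966-211134828, covered the start of this brain channel gene and overlapped both RNF2 and H2AK119ub. The KCNH4 peak lay 25.8 kb from the listed start, just beyond the far end of the gene, and the KCNJ14 peak also lay beyond its gene's far end. Of those of these genes with a listed start, only KCNH1 and KCNK17, whose peak lay 250 bp from the start, had this peak within 2 kb of it.

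Overlap with RNF2 was less common for YTHDF1 peaks of KCN genes than for those of coding genes at large. Of the 233, 31 (13.3%, interval 9.22% to 18.4%) overlapped an RNF2 peak, against 19.5% of 24050 peaks over coding genes. With H2AK119ub, 85 (36.5%, interval 30.3% to 43.0%) overlapped, against 38.1%. Split by gene length the RNF2 overlaps were close to the background in each class, at 54.5% against 59.7% under 10 kb, 30% against 35.5% from 10 to 50 kb, 14.7% against 16.5% from 50 to 200 kb, and 5.60% against 6.15% above 200 kb. The lower pooled share thus went with the greater length of the KCN genes. Within classes the overlap with H2AK119ub lay above the background in genes of 10 to 50 kb (26 of 30 peaks, 86.7%, interval 69.3% to 96.2%, against 63.0%) and of 50 to 200 kb (33 of 68, 48.5%, interval 36.2% to 61.0%, against 35.2%). It was 11 of 11 against 85.9% under 10 kb, and 16 of 125 (12.8%, interval 7.5% to 20%) against 16.5% above 200 kb. The pooled share near the background was therefore made of classes on either side of it. Median island cover of the KCN windows was 81.0%, 56.2%, 8.47% and 1.84% by rising length class. For all coding genes it was 58.2%, 20.9%, 6.53% and 2.66%. Whether the overlap differs from what this cover alone would give was not tested. From the other side, 147 of 156 RNF2 peaks (94.2%, background 89.5%) overlapped an island, and 29 (18.6%, background 21.4%) overlapped YTHDF1. Of 236 islands, 98 (41.5%, background 47.1%) overlapped RNF2 and 78 (33.1%, background 25.1%) YTHDF1.

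Gene length went with the number of genes that had YTHDF1. Among 20 KCN genes under 10 kb, 9 had YTHDF1 (45.0%, background 29.4%). From 10 to 50 kb it was 17 of 34 (50%, background 51.1%), from 50 to 200 kb 19 of 22 (86.4%, background 76.8%), and above 200 kb 18 of 18 (100%, background 93.6%). Every interval held the background share. RNF2 was less tied to length, at 16 of 20 (80.0%, interval 56.3% to 94.3%, background 55.6%), 25 of 34 (73.5%, background 73.2%), 18 of 22 (81.8%, background 82.5%) and 17 of 18 (94.4%, background 91.2%). Short KCN genes were the one class whose RNF2 interval lay above the background. H2AK119ub touched 17 of 20, 31 of 34, 19 of 22 and 17 of 18 genes in the same order (85.0%, 91.2%, 86.4% and 94.4%), against 67.0%, 80.6%, 86.6% and 92.0%. All 3 lists met over 8, 14, 16 and 17 genes (40%, 41.2%, 72.7% and 94.4%), against 23.7%, 41.8%, 64.6% and 84.6%.

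**Figure D4:**
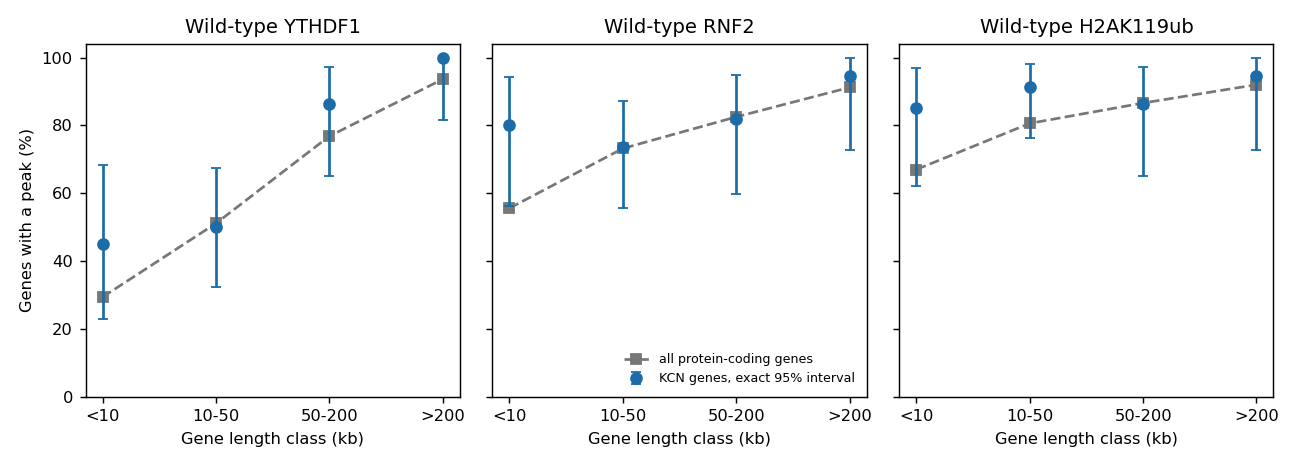
Percent of genes with a wild-type YTHDF1, RNF2 or H2AK119ub peak in 4 classes of gene length; circles are KCN genes (20, 34, 22 and 18 per class) with exact 95% intervals, and squares joined by dashed lines are all coding genes. The YTHDF1 shares climb from 45.0% to 100% as the background climbs from 29.4% to 93.6%, and the RNF2 share of short KCN genes (80.0%) lies furthest above its background (55.6%).

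Peaks of the 3 lists lay at different places along the genes. Within 2 kb of a start, 17 of 72 genes with a promoter entry had YTHDF1 (23.6%, background 24.4%), 51 had RNF2 (70.8%, background 68.2%) and 62 had H2AK119ub (86.1%, background 75.5%). The 22 genes without an entry, KCNJ12 and KCNK12 among them, could not be placed. Taking all listed starts of a gene together, RNF2 with H2AK119ub and no YTHDF1 was the commonest state, in 36 genes (50%, background 44.1%). All 3 were found near the starts of 15 genes (20.8%, background 20.7%), though not always at the same start. These were KCNA4, KCNA5, KCNA6, KCNA7, KCNAB2, KCNC2, KCNH1, KCNH2, KCNK13, KCNK17, KCNMA1, KCNMB3, KCNN3, KCNQ5 and KCNT2. In KCNMB3 the YTHDF1 peak lay at a different start from the RNF2 peak and the island. H2AK119ub alone marked 9 genes (12.5%, background 8.69%), and 10 had no peak (13.9%, background 20%). KCNE3 and KCNK5 had YTHDF1 with H2AK119ub and no RNF2 (2.78%, background 1.96%). No gene had, over its starts together, YTHDF1 alone (background 1.17%), RNF2 alone (2.83%) or only these 2 together (0.549%), and 0 of 72 allows up to 4.99%.

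Measured peak by peak, 60 of 110 RNF2 peaks over these 72 genes lay within 2 kb of a listed start (54.5%, interval 44.8% to 64.1%), against 63.0% over all coding genes. For H2AK119ub it was 69 of 192 islands (35.9%, interval 29.2% to 43.2%, all coding 45.6%). For YTHDF1 it was 18 of 180 peaks (10% of them, interval 6.04% to 15.3%, all coding 20.6%). Median distances were 0.78 kb, 18.6 kb and 59.9 kb in that order. The YTHDF1 peaks of KCN genes were thus mostly distal. In genes above 200 kb, which held 105 of the 180 YTHDF1 peaks, 4 lay near a start (3.81%, all coding 5.01%). From 10 to 50 kb 6 of 28 did (21.4%, interval 8.3% to 41.0%, all coding 35.4%), and from 50 to 200 kb 5 of 41 (12.2%, interval 4.08% to 26.2%, all coding 15.2%). The RNF2 share did not follow length in the same way. It was 22 of 49 from 10 to 50 kb (44.9%, interval 30.7% to 59.8%, all coding 68.6%). A few genes gave many of these 49 peaks (KCNH2 7, KCNN1 6, KCNJ5 5 and KCNIP2 5), and the interval does not allow for that. The share was 15 of 22 from 50 to 200 kb (68.2%, all coding 57.5%) and 14 of 26 above 200 kb (53.8%, interval 33.4% to 73.4%, all coding 41.7%). In KCNJ4 and KCNN2 the upstream gene end has no listed start, so RNF2 peaks over it counted as distal. A direct overlap of a YTHDF1 peak with a promoter was found in 8 genes, KCNAB2, KCNC2, KCNE3, KCNH1, KCNH2, KCNK5, KCNMB3 and KCNT2, and in 5 of them RNF2 lay over the same promoter. At promoters with 20 or more CpGs, YTHDF1 lay over 5 of 48 (10.4%, interval 3.47% to 22.7%), against 20.8% of such promoters of coding genes, a share inside the interval.

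**Figure D5:**
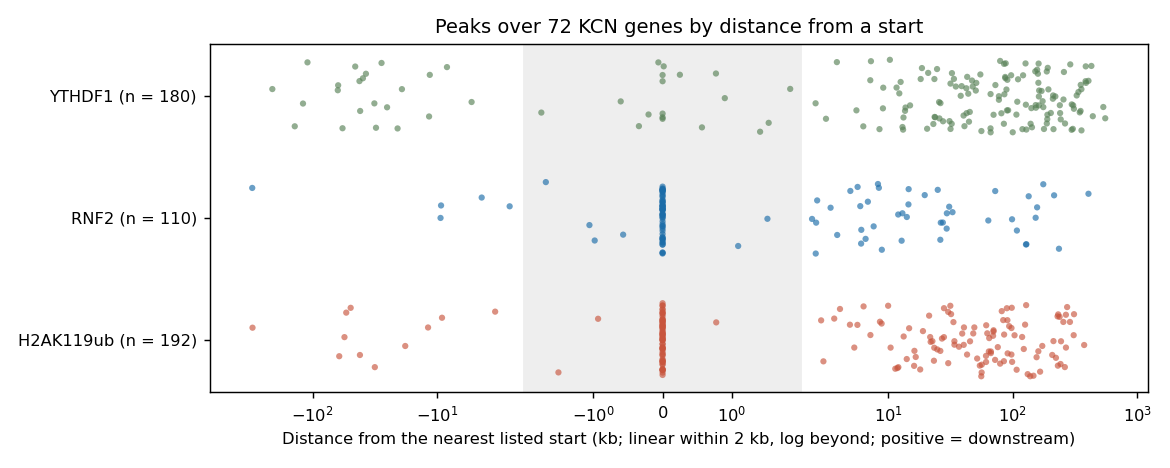
Distance in kb from each peak to the nearest listed start of its gene, for 180 YTHDF1, 110 RNF2 and 192 H2AK119ub peaks over 72 KCN genes; the axis is linear within 2 kb (shaded) and log beyond, positive values lie downstream, and vertical jitter only separates the points. Within 2 kb of a start lie 18 YTHDF1 peaks, 60 RNF2 peaks and 69 H2AK119ub islands. The other points of each list spread to several 100 kb on either side. Median distances regardless of side are 59.9 kb, 0.78 kb and 18.6 kb in that order.

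The knockdown list could say little about these genes. No KCN gene had a YTHDF1 peak in the knockdown list (0 of 94, which allows up to 3.85%, background 0.843%), nor within 2 kb of a listed start (background 0.492%). The knockdown list held only 226 peaks and started at a −log10 q of 4.01, where the wild-type list started at 1.5. At a common minimum of 4, wild-type peaks over KCN genes numbered 1 and knockdown peaks 0, with 1062 and 226 peaks in the whole lists. At a minimum of 8 both numbered 0, and the whole lists held 53 and 83. The nearest knockdown peak to any KCN gene lay 3.04 kb from KCNN1 (443 bp, 3.49-fold), outside the window, and overlapped no wild-type YTHDF1 peak. At these numbers a change of YTHDF1 over KCN genes between wild-type and knockdown cells was not detectable.

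Other cation channels were set beside the KCN genes. The 44 sodium (SCN), voltage-gated calcium (CACN) and hyperpolarisation-activated (HCN) channel genes were longer, with a median of 103.9 kb. They had YTHDF1 over 37 (84.1%, background 54.1%), RNF2 over 35 (79.5%, background 71.7%) and H2AK119ub over 38 (86.4%, background 79.0%). An RNF2 peak of 10-fold touched 7 of the 44 (background 8.75%). RNF2 and H2AK119ub shares were thus near those of KCN genes (80.9% and 89.4%). The calcium channel genes had RNF2 over 23 of 26 and H2AK119ub over all 26, much as the voltage-gated KCN pore genes did. The sodium channel genes, with a median of 109.1 kb, had YTHDF1 over 13 of 14 (interval 66.1% to 99.8%, background 54.1%). RNF2 and H2AK119ub lay over only 8 each (57.1%, interval 28.9% to 82.3%), an interval that holds both backgrounds, 71.7% and 79.0%. SCN1A, SCN2A, SCN3A, SCN7A, SCN10A and SCN11A had YTHDF1 peaks alone, the state that only 3 of 94 KCN genes showed.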

How the data were processed

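ChIP-seq had been made from H1 cells with 2 biological replicates per group, per the labels, and the authors merged replicates into 1 peak list for each of 4 groups. The submitters' processing notes name the hg38 build, SICER 1.1 and MACS2 2.1.0 together with Trimmomatic 0.35, Picard, SAMtools 1.3.1 and Bowtie2 2.2.5, with no settings. Which caller made which list is not given in the sources used here. All lists but that of H2AK119ub have the layout of MACS2 narrow peaks. They carry the authors' fold enrichment (a ratio to control) and the authors' −log10 p-value and −log10 q-value, all as deposited. The score deposited with them is the −log10 p times 10, truncated and capped at 1000. The H2AK119ub intervals are multiples of 200 bp, and their deposited score has no stated scale and was used only to rank that list in an alternative. The deposited summit offsets were not used.

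Gene positions came from RefSeq for GRCh38.p14, the assembly of hg38, for the 22 autosomes, X and Y. Symbols starting with KCN were taken, of which 2 were not analysed here and some others are counted but not reported by name here. Overlap needed 1 bp. Starts, strand and promoter sequence came from a RefSeq promoter table, which matched 72 of 94 genes. Distances run from the nearer edge of a peak to the nearest listed start. Shares were computed with Python 3.11.15, numpy 2.4.6, pandas 2.3.3 and scipy 1.17.1, with exact 95% intervals, and the overlap functions were tested on simulated intervals. Genes and peaks are not replicates, neighbouring genes share peaks, depth is unknown, and no test was made.

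The members, subfamilies and gene lists were chosen with earlier results of these data known. Genes described in full were the 12 with most RNF2-covered bases, the 10 with the strongest YTHDF1 peak by −log10 p (with KCNJ10, tied with the last), the 5 with the longest H2AK119ub island, the strongest RNF2 peak of each subfamily and genes without a peak. Members of KCNA, KCNC, KCNJ, KCNK and KCNQ were named in counts. The 10-fold, 5 kb and 50% thresholds, the CpG classes, the comparison within genes, the printed promoters and other genes singled out were chosen after their values were seen.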

Additional observations from a re-analysis of the deposited data

How the results depend on the processing

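No paired analysis was possible because the replicates were merged into 1 list per group. Of the values recomputed with another window, overlap rule or peak threshold, 76 kept within the interval and within 1.5 times of the reported value and 20 did not. The YTHDF1 counts moved most. The share of the 94 KCN genes with YTHDF1 fell from 67.0% to 53.2% with the better-scoring 50% of each list. It was 31.9% with 2 kb around the gene ends and 1.06% at a −log10 q of at least 4. With 2 kb around listed starts it was 23.6%, counted over only the 72 genes that have one. All 3 wild-type lists met over 45.7%, 26.6% and 1.06% with the better-scoring 50%, the gene ends and the −log10 q of 4. At that minimum 1 YTHDF1 peak was left over KCN genes, and 0 of it overlapped RNF2 and 0 H2AK119ub; at 8 there were 0 peaks. RNF2 was over 70.8% of the 72 genes at listed starts. H2AK119ub was over 77.7% of all 94 when 50% of an island had to lie inside the window. The knockdown list was over 1.06% of the 94 with 5 kb flanks. With the better-scoring 50% YTHDF1 lay over 37.5% of KCNA and 50% of KCNC genes. At listed starts YTHDF1 lay over 1 of 3 KCNC genes (33.3%), 0 of 13 KCNJ (0%) and 3 of 12 KCNK (25%). RNF2 lay over 6 of 13 KCNJ (46.2%). Fewer peaks or shorter windows enter these alternatives by construction. Leaving out the 6 genes that share a peak, an alternative chosen after seeing the data, gave 67.0%, 80.7% and 88.6% for YTHDF1, RNF2 and H2AK119ub. Unknown depth and the merged replicates limit all shares, and a gene without a peak may have signal below the authors' thresholds.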
